A study of Equus caballus with 32 samples.

Results

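The genes described here encode the proteins of the mitochondrial ribosome. They were chosen by symbol, as every row of the deposited expression table whose gene name begins with MRPL or MRPS followed by a digit, which gave 70 of 21357 genes. The rule reads the symbol and no measured value, although the gene family was picked with earlier results of these data known. MRPL44, which encodes a large subunit protein related to the ribonuclease III family, was listed at 0 in all 32 libraries, and the other 69 genes passed the filter on low values and were tested among 14643 genes.

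Mitochondria translate their own small set of messenger RNAs, which encode core subunits of the respiratory chain and of the ATP synthase, on a ribosome of their own. Its RNA is transcribed from mitochondrial DNA, whereas all of its proteins are encoded in the nucleus, made in the cytosol and imported. The small subunit binds the messenger RNA and reads its codons, the large subunit joins the amino acids, and both carry proteins with a counterpart in bacteria beside proteins found only in mitochondria.

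The study sampled the same 16 male adult Thoroughbred racehorses from 1 yard and 1 trainer at 2 time points and sequenced total RNA from the cells of a tracheal wash (TW), fluid instilled in the windpipe and drawn back. At T0 the horses had been at rest for about 2 months and were largely at pasture, and at T1 they had been in race training for about 2.5 months and were stabled. Stabling, season and sampling round changed together with training, so their parts cannot be told apart. Horses 2, 3 and 10 formed the High N group, with a raised neutrophil share in the wash at T1, against 13 others. All horses apart from 4, 9, 10, 11 and 16 were classed as affected by exercise-induced pulmonary haemorrhage (EIPH) in the training period. EIPH is bleeding into the lung that leaves iron-laden macrophages in the wash. The class gave 11 affected and 5 unaffected horses. Both classes come from the study's text and were joined to the libraries through the horse numbers in the sample titles. Horse 10 is both High N and unaffected by EIPH, and none of the horses had clinical respiratory disease.

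Values are on the log2 scale as deposited by the authors, so that a difference of 1 is a 2-fold change. The study states a common sequencing depth per sample, but the read counts behind the values of each library are not known. When back-transformed they summed to between 25036973 and 39041366 per library. Of the marker symbols listed for each cell type, 14 of 15 for macrophages, 10 of 19 for neutrophils, 14 of 15 for T cells, 8 of 9 for B cells, 24 of 27 for ciliated and 6 of 14 for secretory and squamous epithelium had a row, and none of these rows was at 0 in every library. The ciliated marker mean spanned 7.78 to 11.72 at T0 and 7.70 to 11.61 at T1, the macrophage marker mean 12.60 to 14.49 and 13.13 to 14.29. On the log2 scale the ciliated marker mean thus ranged more widely than the macrophage marker mean. The secretory and squamous marker mean spanned 7.72 to 11.29 at T0 and 7.99 to 12.12 at T1. The T1 libraries of horses 1, 14, 15 and 16 stood apart, with a median distance of a gene from its median over all libraries of 0.50 to 0.62, against 0.13 to 0.38 in the other 12 T1 libraries. The training, T1 and interaction comparisons are given with and without them. In a wash, fewer cells of a type and less RNA per cell cannot be told apart.

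The first comparison asked how the 69 genes differed between rest and training within each horse. Of these genes 17 rose with training and none fell at an adjusted p under 0.05 (limma on within-horse differences, Benjamini-Hochberg over all 14643 genes). This is 24.6% of the 69 genes, where 3.89% of all tested genes rose (569 genes) and 2.47% fell (361 genes). When each library was shifted to 1 median, 13 of the 69 rose and the split over all genes was 436 higher and 83 lower. The increases were small. They lay between 0.31 and 0.59 on the log2 scale, which is 1.24-fold to 1.51-fold, and each of the 17 genes was higher at T1 in 13 to 15 of the 16 horses. Over all 69 genes the median change was 0.20, against -0.025 over all genes tested, and 58 of the 69 (84.1%) were higher on average at T1, against 46.4% of all genes. An unadjusted p under 0.05 was reached by 36 of the 69 (52.2%) and by 28.5% of all genes.

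How many genes passed the threshold hung on single horses. Leaving out 1 horse at a time gave between 1 gene (without horse 3, 4, 6, 15 or 16) and 24 genes (without horse 9), with 2 genes without horse 1, 11 or 14, 3 without horse 8 and 8 without horse 10. The whole table moved as well, with 67 genes higher and 10 lower without horse 6, and 1055 higher and 792 lower without horse 9. Without horse 3, 4, 15 or 16 the table had 103 and 20, 120 and 24, 87 and 10, and 107 and 15. Without horse 1, 11 or 14 it had 169 and 53, 124 and 14, and 134 and 40. Without horse 8 it had 146 and 24, and without horse 10 it had 282 and 72. Without horses 1, 14, 15 and 16 no gene of the whole table passed. Of the 69 genes 64 were still higher at T1, with a median change of 0.19. Over all genes 6336 of 14646 were higher, with a median of -0.035. At an unadjusted p under 0.05 there were then 27 of the 69, including 16 of the 17, and 2065 of all 14646 genes. The 17 were picked from a fit that holds the remaining horses, so that the count of 16 is no test of them. Without the 3 High N horses none of the 69 passed, with a median of 0.21 and 31 at an unadjusted p under 0.05. Of all 14635 genes then tested, 24 rose, 1 fell and 3155 had an unadjusted p under 0.05. The size of the median change thus moved little, between 0.175 and 0.236, as single horses were left out, while the number of calls moved widely.

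**Figure D1:**
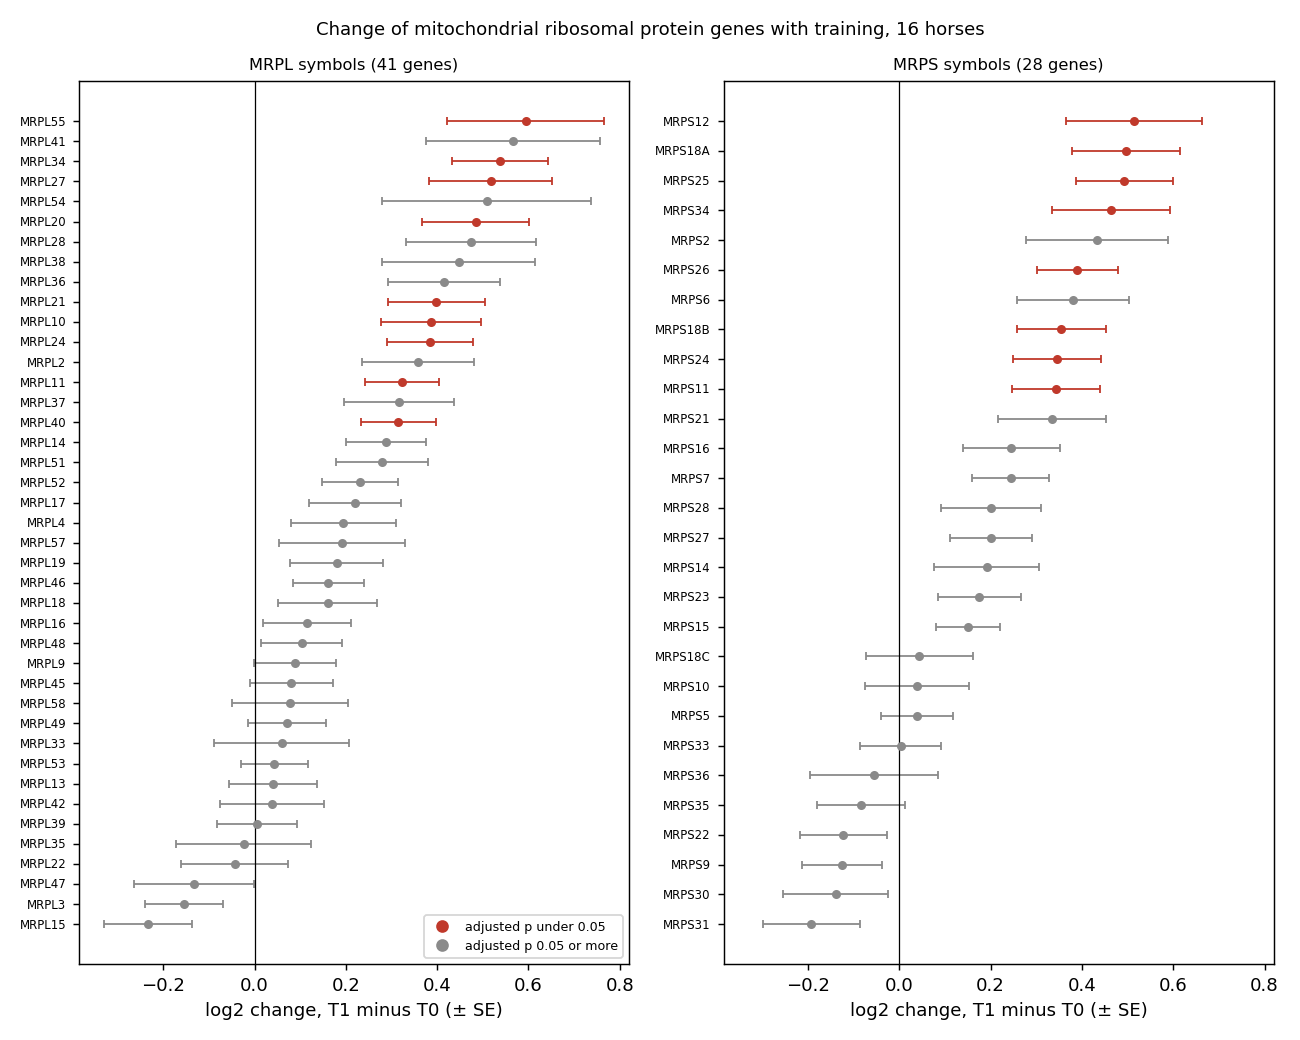
Log2 change from T0 to T1 with its standard error for each of the 69 tested genes over 16 horses, MRPL symbols on the left and MRPS symbols on the right, with genes at an adjusted p under 0.05 in red. The 17 red points are all to the right of 0, between 0.31 and 0.59, and the 11 genes to the left of 0 are all grey.

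Among large subunit genes, MRPL34 had the smallest p of all 69. It encodes the counterpart of bacterial protein L34. Its 16 values were 7.71 to 9.26 (median 8.16) at T0 and 8.21 to 9.77 (median 8.68) at T1. The ranges overlapped, but within horses MRPL34 was higher at T1 in 15 of 16, all except horse 13, where the difference was -0.039. The mean rise was 0.54 ± 0.105 (SE, n = 16 horses), or 1.45-fold, with an adjusted p of 0.0171 (limma), and it was the one gene of the 69 that kept an adjusted p under 0.05 without any single horse (largest adjusted p 0.0428, without horse 6).

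MRPL20 and MRPL24 are also counterparts of bacterial large subunit proteins, and the latter lies beside the exit of the tunnel through which the new chain leaves. MRPL20 had values of 9.79 to 10.59 (median 10.24) at T0 and 10.29 to 11.88 (median 10.51) at T1, a rise of 0.48 ± 0.117 (adjusted p = 0.0340). MRPL24 had values of 9.75 to 10.60 (median 10.13) at T0 and 10.19 to 11.62 (median 10.44) at T1, a rise of 0.38 ± 0.094 (adjusted p = 0.0340). For both genes the ranges overlapped, with 14 of 16 horses higher at T1, and the highest T1 library was that of horse 1.

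MRPL11 and MRPL10 sit at the base of the stalk that recruits translation factors to the ribosome. MRPL11 had values of 10.12 to 10.81 (median 10.57) at T0 and 10.42 to 11.53 (median 10.82) at T1, a rise of 0.32 ± 0.081 (adjusted p = 0.0352). MRPL10 rose by 0.39 ± 0.109 (adjusted p = 0.0447). Each was higher in 13 of 16 horses. MRPL40, a protein with no bacterial counterpart, had values of 9.25 to 9.999 (median 9.56) at T0 and 9.63 to 10.33 (median 9.90) at T1. Its rise of 0.31 ± 0.082 (adjusted p = 0.0383) was the smallest among the 17, and its spread did not widen at T1 (SD 0.239 at T0 and 0.226 at T1).

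MRPS18A bears a small subunit name, but its protein is found in the large subunit. Its values were 9.50 to 10.35 (median 9.82) at T0 and 9.69 to 11.64 (median 10.24) at T1, a rise of 0.50 ± 0.118 (adjusted p = 0.0338). The other large subunit genes that rose were MRPL27, whose bacterial counterpart reaches into the centre where peptide bonds form (0.52 ± 0.135, adjusted p = 0.0383), MRPL21 (0.40 ± 0.107, adjusted p = 0.0405) and MRPL55, with the largest change of all 69 (0.59 ± 0.172, adjusted p = 0.0473). MRPL55 was not uniform. Its T0 values stayed within 9.23 to 10.003, while those at T1 spanned 8.83 in horse 9 to 11.996 in horse 1.

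In the small subunit, MRPS25 and MRPS26 are proteins found only in mitochondrial ribosomes. MRPS25 had values of 9.61 to 10.42 (median 9.92) at T0 and 9.91 to 11.66 (median 10.43) at T1, a rise of 0.49 ± 0.107 or 1.41-fold (adjusted p = 0.0254). MRPS26 had values of 9.39 to 10.25 (median 9.61) at T0 and 9.49 to 11.01 (median 9.95) at T1, a rise of 0.39 ± 0.089 (adjusted p = 0.0299). Both were higher in 14 of 16 horses, with overlapping ranges. MRPS34 and MRPS18B, also without a listed bacterial counterpart, rose by 0.46 ± 0.129 (adjusted p = 0.0440) and 0.36 ± 0.097 (adjusted p = 0.0418).

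The last 3 small subunit genes with a bacterial counterpart also rose. MRPS12, the counterpart of the protein that lines the decoding centre, rose by 0.51 ± 0.149 (adjusted p = 0.0477). MRPS24, the counterpart of bacterial S3, where the messenger RNA enters, rose by 0.35 ± 0.096 (adjusted p = 0.0434), and MRPS11 rose by 0.34 ± 0.096 (adjusted p = 0.0442). MRPS12 lies past the 15 genes of smallest p that the rule for named genes takes and is named after its value was seen.

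**Figure D2:**
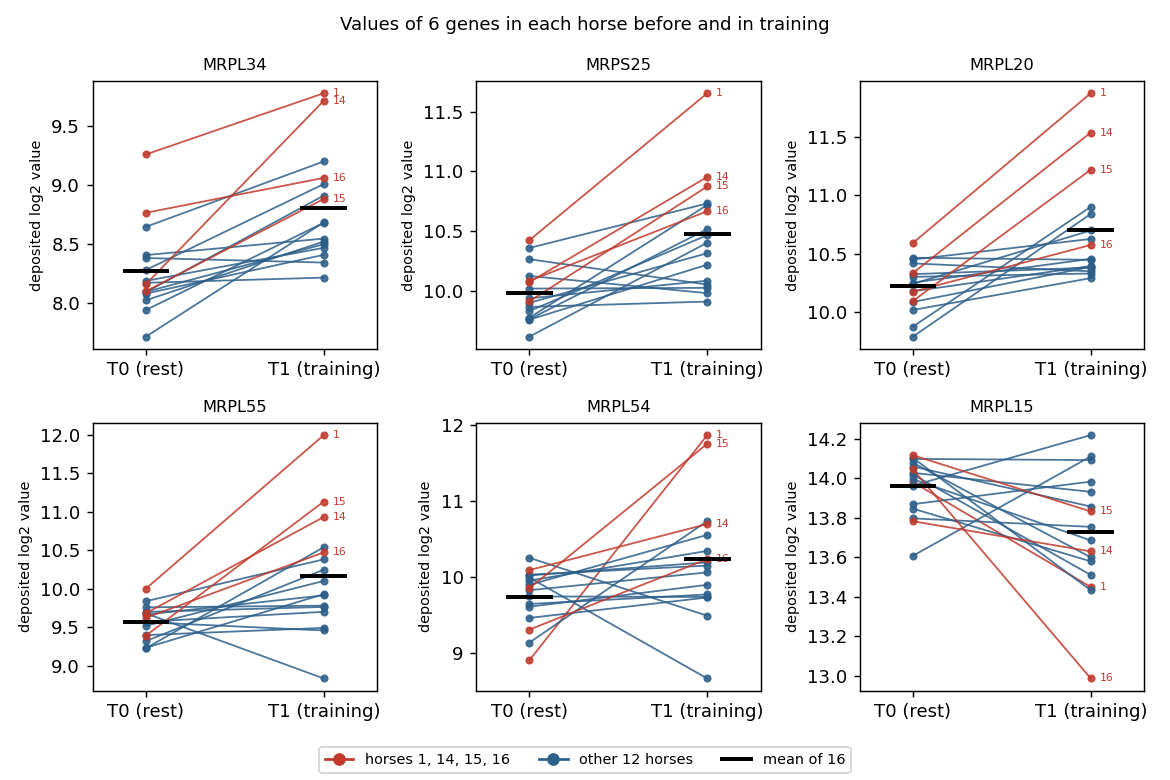
Deposited log2 values of 6 genes at T0 and T1, with 1 line per horse, horses 1, 14, 15 and 16 in red with their numbers, and the mean of 16 horses as a black bar. MRPL34 and MRPS25 slope upward in nearly every horse, MRPL55 and MRPL54 carry their highest T1 values in horse 1, and MRPL15 slopes downward in 13 of 16 horses without passing the test.

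Read by position in the ribosome, with MRPS18A and MRPS30 counted in the large subunit, 10 of 43 large subunit genes and 7 of 25 small subunit genes rose, with median changes of 0.19 and 0.20. MRPS36, whose protein is now assigned to the 2-oxoglutarate dehydrogenase complex, was in neither class, at -0.05. Among large subunit genes, 8 of 25 listed with a bacterial counterpart and 2 of 18 listed as mitochondria-specific rose (median changes 0.22 and 0.18). In the small subunit the counts were 3 of 15 and 4 of 10 (medians 0.24 and 0.19). MRPS18A and MRPS18B were listed as mitochondria-specific, although MRPS18C was listed with a bacterial counterpart, and the shares depend on this choice. These shares were not compared by a test. Of the 5 tested genes listed for the polypeptide exit tunnel, MRPL24 rose and the other 4 did not pass. MRPL4 was not in this list and did not pass either (0.19).

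The threshold cut through genes of like change. Just inside were MRPS12 and MRPL55, and just outside were MRPL36 (0.41 ± 0.123, adjusted p = 0.0503), MRPL28 (0.47 ± 0.142, adjusted p = 0.0514) and MRPL14 (0.29 ± 0.087, adjusted p = 0.0519), all counterparts of bacterial large subunit proteins. MRPL41, found only in mitochondria, had the second largest mean change (0.57) but a wide error (SE 0.191, adjusted p = 0.0691), since its T1 values ran from 9.12 in horse 9 to 12.27 in horse 1, against 9.21 to 10.38 at T0.

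The mean was below 0 for 11 genes, none of which passed. MRPL15, the counterpart of bacterial L15, had the lowest change, -0.23 ± 0.097 (adjusted p = 0.125). Its values were 13.61 to 14.12 (median 14.01) at T0 and 12.99 to 14.22 (median 13.72) at T1, and 13 of the 16 horses had their lower value in training. MRPS31 stood at -0.19 ± 0.106 (adjusted p = 0.242) and MRPL3, near the peptide bond centre, at -0.15 ± 0.085 (adjusted p = 0.245), each with 7 of 16 horses higher at T1. Without horses 1, 14, 15 and 16 these means shrank to -0.14 for MRPL15, -0.060 for MRPS31 and -0.039 for MRPL3. Among the rest of the 11 genes, MRPS9 (-0.014) and MRPS22 (-0.0060) then stayed below 0. The others lay above it, MRPS30 at 0.029, MRPL47 at 0.016, MRPS35 at 0.073, MRPS36 at 0.077, MRPL22 at 0.040 and MRPL35 at 0.13.

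The horses differed in how the 69 genes moved. The median difference of the genes between T1 and T0 was above 0 in 13 of 16 horses, from -0.14 in horse 13, where 59 of 69 genes were lower, to 0.84 in horse 14, where 66 were higher (SD over horses 0.266). In horse 6 it was 0.64 with 67 genes higher, and in horse 3 it was 0.57 with 64 higher. The sizes still differed between genes within these horses, with an SD over the 69 genes of 0.437 in horse 14, 0.293 in horse 6 and 0.446 in horse 3. In horses 2, 12 and 13 the median was below 0, and in horses 1, 15 and 9 it was 0.024, 0.028 and 0.052.

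Horses 1 and 15 showed a split within the gene set. In horse 1 the differences ran from -1.44 for MRPL33 to 2.95 for MRPL54, with 35 genes higher and 34 lower, and in horse 15 from -1.40 for MRPL35 to 2.14 for MRPL41, with 36 higher and 33 lower. All 17 called genes were higher in both horses, with medians of 1.02 and 0.97, and all 11 genes with a mean below 0 were lower, with medians of -1.01 and -0.84. These counts describe the horses that also entered the calls and are no test of them. Of the 69 genes 64 had the same sign in the 2 horses, 33 higher and 31 lower. Across the 69 genes the differences in horse 1 and horse 15 had a Pearson r of 0.94, and across all 14643 genes an r of 0.51. Horse 16 was alike in order (r of 0.80 with horse 1 over the 69 genes), with medians of 0.44 and -0.43 for the called and the lower genes, whereas horse 14, the other library that stood apart, was not (r of 0.23 with horse 1). Genes within a library share its depth and composition, and these r values are descriptions. What set these libraries apart was not tested.

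**Figure D3:**
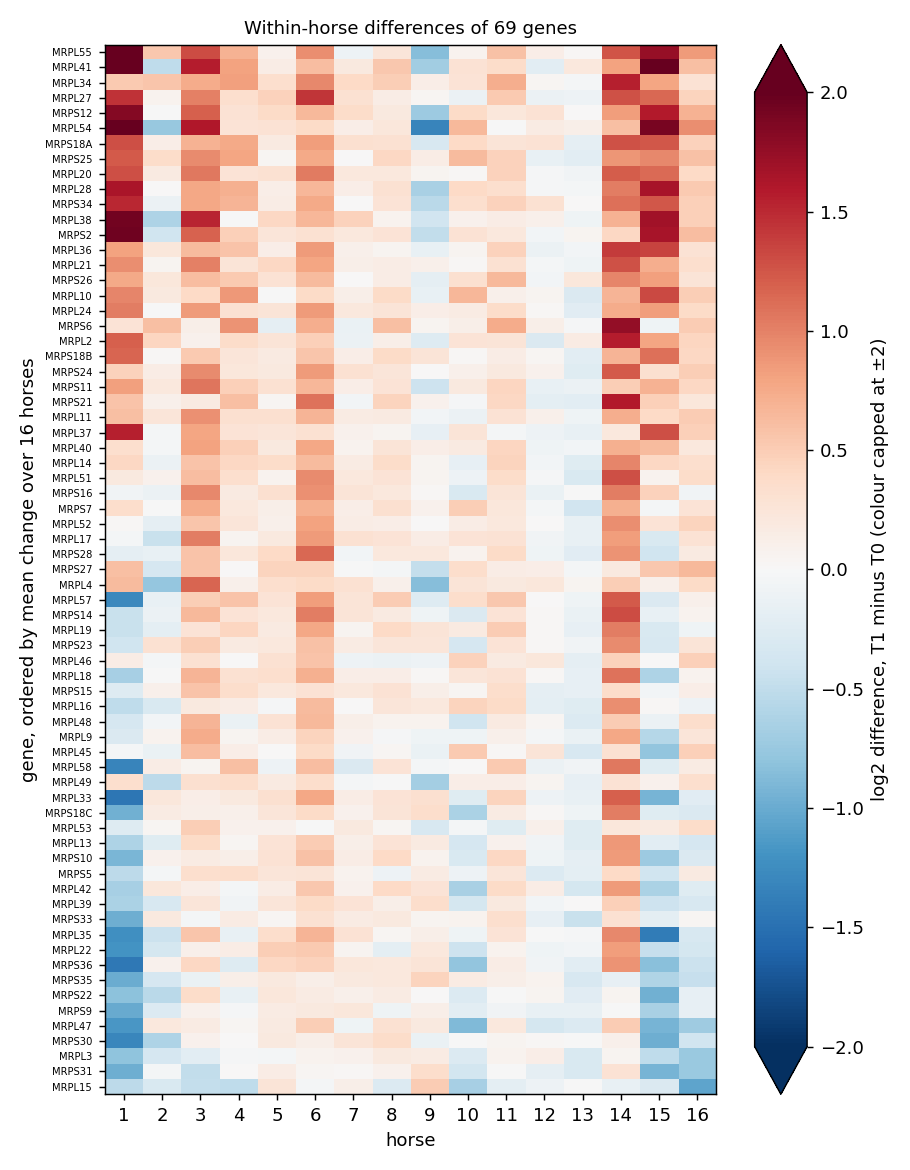
Difference T1 minus T0 on the log2 scale for 69 genes (rows, ordered by their mean) in each of 16 horses (columns), red for higher and blue for lower at T1, with the colour capped at 2. Horses 3, 6 and 14 are red over nearly all rows, horses 1 and 15 are red at the top and blue at the bottom, and horse 13 is pale blue over most rows.

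The spread between horses was wider in training. The median SD over horses was 0.218 at T0 and 0.393 at T1, and 67 of 69 genes had the larger SD at T1, against 77.0% of all genes (median SDs 0.355 and 0.495). Without horses 1, 14, 15 and 16 the medians were 0.203 and 0.238, with 50 of 69 genes wider at T1 and 73.6% of all genes, so that the 69 genes then lay close to the background.

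Few cell type markers passed the test of training. The neutrophil marker mean had a median of 10.07 at T0 (9.38 to 10.49) and of 10.51 at T1 (9.50 to 12.12), where 10 of 19 marker symbols had a row and 1 of them, RETN, rose (median change of the 10 markers 0.58). Of 14 secretory and squamous markers 6 were tested, of which SCGB1A1, the club cell secretory protein, rose. The ciliated markers had a median change of -0.25 with none of 24 called, and none of the 15 macrophage, 15 T cell and 7 B cell rows tested was called. With the neutrophil, T cell and ciliated marker means as covariates, none of the 69 genes and no gene of the table passed. Of the 69 genes 52 were still higher at T1, with a median change of 0.14. Over all genes 6879 of 14643 were higher, with a median of -0.015. The 17 genes then had changes of 0.20 to 0.45 with adjusted p of 0.340 or more.

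The other genes of mitochondrial translation were read against the same background, in which 3.89% of all genes rose and 2.47% fell. Of 5 mitochondrial ribosomal proteins under other symbols, GADD45GIP1 rose by 0.72 ± 0.185 (adjusted p = 0.0378, 14 of 16 horses higher) and AURKAIP1 by 0.66 ± 0.173 (adjusted p = 0.0383, 13 of 16), while CHCHD1 (0.21), DAP3 (0.03) and PTCD3 (-0.08) did not pass, so that 40% of this short list rose. Of 13 mitochondrial translation factors 1 rose, TUFM, the elongation factor that carries aminoacyl-tRNA to the ribosome (0.38, adjusted p = 0.0450), which is 7.69% of the list, and the median change was -0.05. None of 14 mitochondrial aminoacyl-tRNA synthetases (median 0.06) and none of 27 mitoribosome assembly factors (median 0.11) passed. TFAM, which packages mitochondrial DNA and starts its transcription, fell by 0.38 (adjusted p = 0.0405), the 1 gene of 6 in mitochondrial transcription to pass. Without horses 1, 14, 15 and 16 the changes were 0.41 for GADD45GIP1, 0.39 for AURKAIP1, 0.21 for TUFM and -0.27 for TFAM, with adjusted p of 0.273 to 0.318 (limma).

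No change passed among the messenger RNAs that the mitochondrial ribosome translates. None of the 10 protein-coding genes of mitochondrial DNA with a row passed, with a median change of -0.19. The nuclear genes of the respiratory chain and ATP synthase, whose proteins join them, rose in 28 of 61 cases (median 0.29), led by COX8A (0.51, adjusted p = 0.00840) and COX7A2 (0.54, adjusted p = 0.0111), both subunits of cytochrome c oxidase. The proteins of the cytosolic ribosome rose in 34 of 70 cases (median 0.30), led by RPS28 (0.78, adjusted p = 0.00441). No gene of either list fell. Without horses 1, 14, 15 and 16 none of these lists had a call, with medians of 0.28 for the nuclear respiratory genes, 0.24 for the cytosolic ribosome and 0.018 for the mitochondrial DNA genes, so that the sign of the last turned.

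Over the 16 horses, the within-horse differences most like the median difference of the 69 genes were those of NDUFB9, a subunit of respiratory complex I (Pearson r of 0.957), EMC6, of the endoplasmic reticulum membrane complex (0.955), FAM117A (0.951), CIAO2B, of cytosolic iron-sulphur protein assembly (0.948), and HSBP1, which binds heat shock factor 1 (0.947), among 14574 other genes searched. These were picked as the highest of many, and without horses 1, 14, 15 and 16 they lay between 0.930 and 0.964.

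The second comparison set the High N horses against the others. At T1 none of the 69 genes passed (limma, Benjamini-Hochberg), where 24 genes or 0.164% of the table rose, and none had an unadjusted p under 0.05, where 2.78% of all genes did. The median difference was -0.070 with 21 of 69 higher in High N horses, against 49% of all genes. Single genes lay between -0.33 for MRPS18C and 0.20 for MRPS25, with a median standard error of 0.258. MRPL34 had 9.20, 8.68 and 8.46 in horses 2, 3 and 10 and ran from 8.21 to 9.77 with a median of 8.68 in the 13 others, a difference of -0.03 ± 0.301. MRPS25 had 10.73, 10.72 and 10.47 in the same horses, and ran from 9.91 to 11.66 with a median of 10.31 in the others, a difference of 0.20 ± 0.288. The 3 High N values lay inside the range of the others for both genes. The neutrophil marker mean, by contrast, was 10.93 to 12.12 in the High N horses and 9.50 to 10.93 in the others.

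The sign of the High N difference hung on the libraries that stood apart, all 4 of which are among the 13 others. Without them, an alternative chosen after the data were seen, the median was 0.042 with 40 of 69 higher (58.0%, against 51.9% of all genes). None of the 69 passed, where 39 genes of the table were higher and 8 lower, and 7 (10.1%) had an unadjusted p under 0.05, as did 12.2% of all genes. At T0, before training, no gene of the 69 or of the table passed in the same horses, none of the 69 had an unadjusted p under 0.05 (3.37% of all genes), and the median was -0.024 with 27 higher (42.2% of all genes were). In a test of the interaction, the difference between the groups in the change from T0 to T1, no gene of the 69 or of the table passed (median difference -0.043, median SE 0.279, none of the 69 and 1.17% of all genes at an unadjusted p under 0.05). Without the 4 horses again none passed (median difference 0.0027, median SE 0.216), and 2 of the 69 (2.90%) had an unadjusted p under 0.05, against 6.06% of all genes. The High N horses did not move alike, with median differences over the 69 genes of -0.016, 0.57 and 0.065 in horses 2, 3 and 10.

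**Figure D4:**
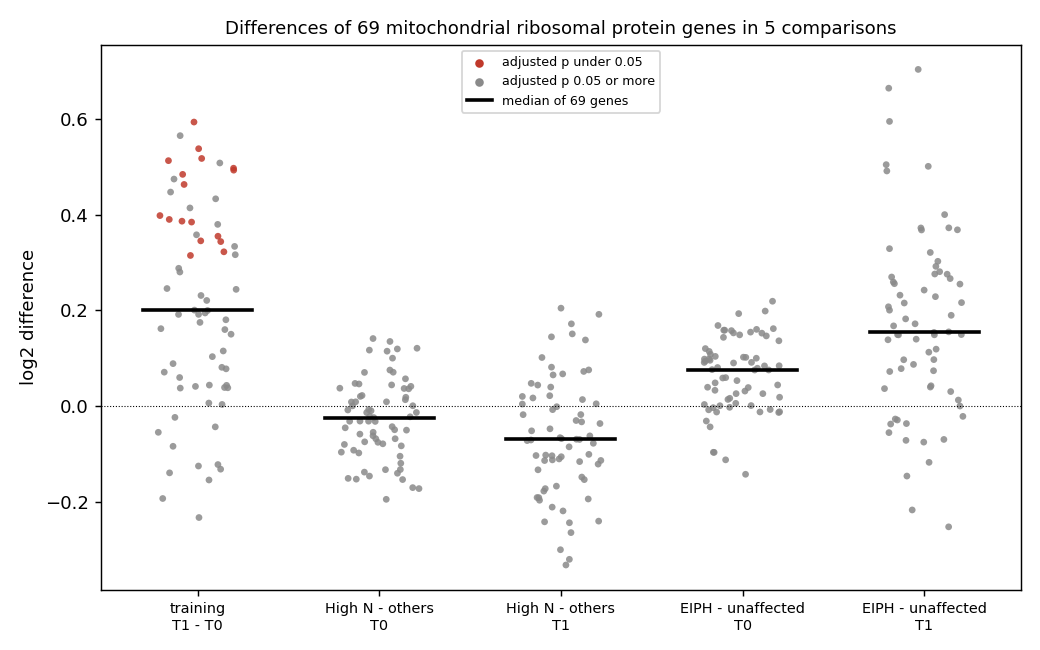
Log2 differences of the 69 genes in 5 comparisons, 1 point per gene and the median as a black bar, with genes at an adjusted p under 0.05 in red. Red points occur for training alone, and the medians are 0.20 for training, -0.024 and -0.070 for High N at T0 and T1, and 0.076 and 0.155 for EIPH at T0 and T1. At T0 the horses are grouped by their later class.

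The third comparison set the 11 EIPH-affected horses against the 5 unaffected. At T1 none of the 69 genes passed (smallest adjusted p 0.242, limma), nor did any gene of the table (0%). The median difference was 0.155, against 0.016 over all genes, with 56 of 69 higher in affected horses (81.2%, against 51.7% of all genes), and the median standard error was 0.213. Of the 69 genes 3 (4.35%) had an unadjusted p under 0.05, against 18.3% of all genes.

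These were MRPL38, MRPS16 and MRPS12, named here after their values were seen. MRPL38 is a large subunit protein of the central protuberance. It had 10.63, 9.84, 11.07, 11.01 and 10.79 in the unaffected horses 4, 9, 10, 11 and 16 at T1, and ran from 10.71 to 12.63 with a median of 11.03 in the affected, a difference of 0.70 ± 0.310 (adjusted p = 0.242). MRPS16, the counterpart of bacterial S16, had 9.08, 8.96, 8.98, 9.44 and 8.94 in the unaffected and ran from 9.14 to 10.27 with a median of 9.38 in the affected, a difference of 0.37 ± 0.171 (adjusted p = 0.259). MRPS12 had 9.64, 8.95, 9.99, 9.96 and 10.02 and ran from 9.77 to 11.55 with a median of 9.99, a difference of 0.60 ± 0.284 (adjusted p = 0.273). The groups overlapped for all 3 genes, with horse 9 lowest for MRPL38 and MRPS12.

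Horses 1, 14 and 15 are affected and horse 16 is not. Without these 4 horses, again chosen after the data were seen, the median EIPH difference at T1 was 0.11 with 54 of 69 higher (78.3%, against 54.4% of all genes). None of the 69 had an unadjusted p under 0.05, as 14.5% of all genes did, and MRPL38, MRPS16 and MRPS12 stood at 0.39 ± 0.224, 0.27 ± 0.128 and 0.36 ± 0.200. The ciliated marker mean was 7.70 to 11.01 in affected and 9.44 to 11.61 in unaffected horses at T1, and the macrophage marker mean 13.60 to 14.29 and 13.13 to 13.85. At T0, with the horses grouped by their later class, no gene passed in the 69 or the table. The median was 0.076, with 55 of 69 higher (79.7%, against 43.4% of all genes). An unadjusted p under 0.05 was reached by none of the 69 and by 1.17% of all genes. No gene passed in the test of the interaction, affected against unaffected horses in the change from T0 to T1 (median difference 0.106, median SE 0.233, smallest adjusted p 0.982), nor without the 4 horses (median difference 0.055, median SE 0.202, smallest adjusted p 0.682).

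The last comparison took the slope of each of the 69 genes on the mean of 24 ciliated marker genes. Other marker means also differed between the T0 libraries at its ends. Horse 16, with the highest ciliated mean (11.72), had a macrophage mean of 12.87 and a secretory and squamous mean of 10.35. Horse 15, with the lowest (7.78), had 14.23 and 7.72. The slope thus cannot tell ciliated cells from other cell types that vary with them. At T0 3 genes rose and 19 fell with the ciliated marker mean at an adjusted p under 0.05 (31.9% of the 69). Of all tested genes 57.6% passed in either direction (30.9% higher and 26.6% lower). These counts moved with the scaling and with horse 14. When libraries were shifted to 1 median, 1 gene rose and 45 fell, while the whole table moved to 23.8% higher and 45.7% lower, and without horse 14 there were 2 and 11 genes, with 28.8% higher and 24.1% lower in the table. Most of the 69 genes that passed were lower in washes with a high ciliated marker mean in each of these fits. The share of the 69 called lower was near that of the table in the main fit. It was under the table's without horse 14 and over it after shifting. The 3 positive slopes belonged to MRPS6 (0.24 ± 0.046 per unit of the marker mean, adjusted p = 0.000234, limma), MRPL58, a peptidyl-tRNA hydrolase that is part of the large subunit (0.14 ± 0.040, adjusted p = 0.00632), and MRPS21 (0.13 ± 0.055, adjusted p = 0.0448). The steepest negative slopes were those of MRPL54 (-0.21 ± 0.050, adjusted p = 0.00183), MRPL38 (-0.20 ± 0.044, adjusted p = 0.00100) and MRPL35 (-0.19 ± 0.043, adjusted p = 0.00126), beside MRPL4, which lines the exit tunnel in bacteria (-0.15 ± 0.038, adjusted p = 0.00232).

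At T1 no slope of the 69 passed, where 27.4% of all genes did, and 3 had an unadjusted p under 0.05, as did 37.8% of all genes. All 22 genes called at T0 had the same sign at T1, among 54 of 69 with the same sign at both times. The share of all genes that kept their sign is not given here. MRPS6 had a slope of 0.23 ± 0.093 at T1 (adjusted p = 0.0705), close in size to that at T0 with a wider error, and MRPL38 one of -0.18 ± 0.130 (adjusted p = 0.335). Shifting libraries to 1 median gave 10 called slopes at T1, all negative (39.1% of all genes were called). Without horses 1, 14, 15 and 16 the slopes of 57 of the 69 genes were negative and 7 of these were called (10.1%). Of all genes 33.2% were then called and 48.3% had a positive slope. Of the 17 genes that rose with training 3 had a called slope at T0, as did 57.6% of all genes. The ciliated marker mean itself was higher at T1 in 7 of 16 horses, with a median difference of -0.23.

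**Figure D5:**
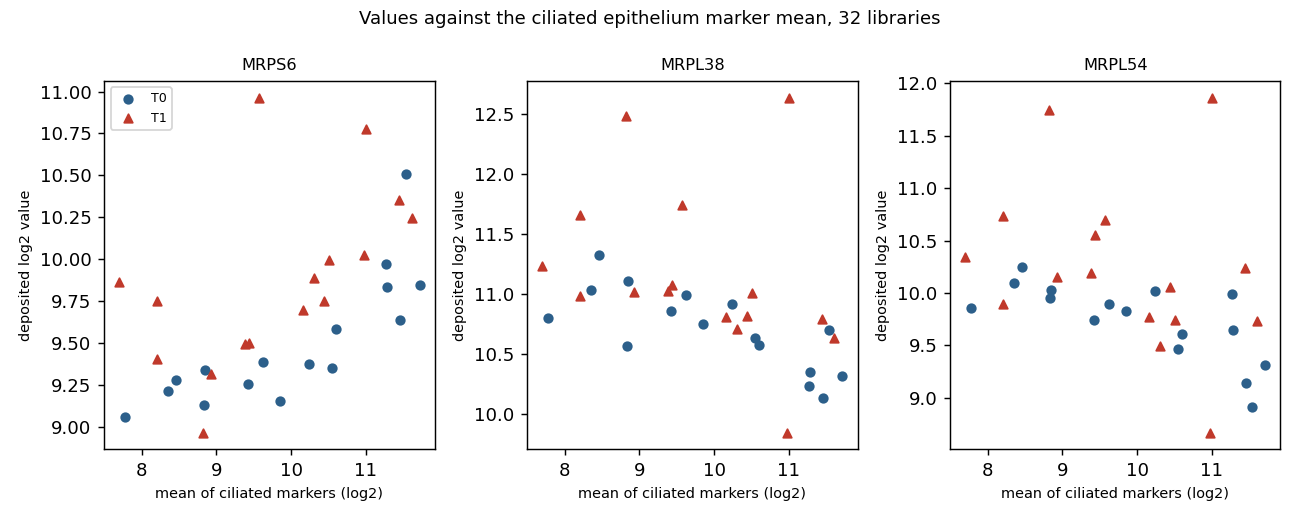
Deposited log2 values of MRPS6, MRPL38 and MRPL54 against the mean of the ciliated epithelium markers in the 16 T0 libraries (blue circles) and 16 T1 libraries (red triangles). MRPS6 climbs with the marker mean at both time points, MRPL38 and MRPL54 decline with it at T0, and a few T1 libraries lie far above or below the others.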

How the data were processed

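Total RNA of TW derived cells from 16 horses at T0 and T1 (32 libraries) was sequenced after a directional library preparation. Before deposit, adaptors and poor bases were removed (cutadapt), quality was checked (FastQC, MultiQC), and expression was estimated by the authors with kallisto 0.46.0.1 on the Ensembl transcripts of EquCab3.0, with DESeq2 for their tests. The deposited table is titled as raw counts but holds values that are not whole, some below 0, and was read as log2 values made by the authors. The transformation, any adjustment for library size and any shrinkage of low genes are not given in the sources used here. Shrinkage, if applied, would make the change of low genes too small, and without counts no counting error can be given.

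Genes at 0 in every library (1899) were left out, and genes averaging at least 3 on the log2 scale were tested with limma 3.58.1 in R 4.3.3 (empirical Bayes with a mean-variance trend, Benjamini-Hochberg adjustment over all tested genes, threshold 0.05). Horse was a block for training, as the same horses were sampled at T0 and T1. Deviations from the time point means correlated over 0.1 in 12 of 16 horses (-0.51 to 0.79). High N and EIPH were compared within each time point and as interactions with time. The fits were also run on simulated data, with genes drawn independently and the T0 spread used at both times. Such data hold neither the wider spread at T1 nor libraries that stand apart, so they do not test the fits under these. Figures were drawn with matplotlib. No annotation of the transcripts was used here, so neither sequences nor positions are given, and reads shared with near-identical copies could not be assessed. As 1 library stands for each horse and time, p-values within a time point measure the spread between horses. Those for training and the interactions measure the spread of the within-horse differences.

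The members and gene lists were chosen with earlier results of these data known. By rule the text named called members up to 15 by p, the 3 largest and 3 smallest changes, members called in other comparisons up to 4 per direction, and up to 2 genes per list. Others were named after their values were seen. Alternatives were the block, the low-value filter, the scaling, limma settings, marker covariates and leaving out horses.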

Additional observations from a re-analysis of the deposited data

Results flagged for a closer look

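Among the 5 horses without EIPH, 3 of 42 checks (21 genes at 2 time points) had 1 horse far from the other 4 by Dixon's ratio, the gap to the nearest horse divided by the whole range, where chance gives about 1 in 20. Horse 9 was the horse in each case. The checks share the libraries of the same 5 horses, and the genes were named by their results in these data. The rate of 1 in 20 is therefore no test of the count. At T1 MRPS34 was 8.73 in horse 9 and 9.66 to 9.89 in the others (ratio 0.800), and MRPL41 was 9.12 in horse 9 and 10.33 to 10.73 in the others (ratio 0.752). At T0 MRPL15 was 13.61 in horse 9 and 14.02 to 14.10 in the others (ratio 0.830). Horse 9 also had the lowest T1 value of MRPL54 and MRPL55 over all 16 horses, while MRPL15, lower at T1 in most horses, was 0.50 higher there. Without horse 9 the training comparison called 24 of the 69 genes, where 1055 genes of the table rose and 792 fell.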

How the results depend on the processing

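The count of genes called with training was 17. It was 0 with no replicate block, 8 with no filter on low values, 10 with no mean-variance trend, 0 with the marker covariates, 0 without the High N horses and 0 without horses 1, 14, 15 and 16, and lay between 1 and 24 when 1 horse was left out. Over all genes 930 were called, against 15 with no block, 454 with no filter, 519 after shifting libraries to 1 median, 0 with covariates and 25 without High N horses. With no mean-variance trend 413 genes of the table rose and 220 fell. A stricter filter (mean of at least 7) gave 21 genes, where 772 of 10842 tested genes rose and 609 fell. Robust empirical Bayes gave 18, where 586 genes of the table rose and 370 fell. The median change of the 69 genes kept its sign in all 25 alternatives, and the 17 genes were higher on average in each. The 17 were picked from the main fit, so their sign in fits that share its horses is no test. Single values were followed for 21 genes, the 17 called and MRPL41, MRPL15, MRPS31 and MRPL3, which gave 525 values. Of these, 244 lost their call, all among the 17 genes, 1 gained one (MRPL41 without horse 9) and none turned its sign. Other genes of the 69 did turn. Without horses 1, 14, 15 and 16, MRPS30, MRPL47 and MRPL35 went from below 0 to 0.029, 0.016 and 0.13. The block changed no other call. For the ciliated slope at T0, 22 genes were called, 46 after shifting libraries to 1 median and 13 (without horse 14) to 26 with 1 horse left out. At T1 none was called, 10 after shifting, 0 to 2 with 1 horse left out and 7 without horses 1, 14, 15 and 16. High N and EIPH gave 0 calls among the 69 genes under every alternative run. The cause of these differences was not tested. Small changes of this size, with 16 pairs and 4 libraries that stand apart, lie at the limit of what the design can call. Log2 values without their counts do not allow counting error to be separated from the spread between horses.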

Other observations

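Besides the genes with an MRP symbol, 11 rows without a symbol were described in the table as mitochondrial ribosomal proteins, of which 9 were tested for training. The row described as L43 rose by 0.31 (adjusted p = 0.0350, limma), and it was the 1 row of 9 to pass. The 4 rows described as L1, a mobile stalk protein of the large subunit, stood at -0.63, -0.22, -0.94 and -0.78, with adjusted p between 0.0639 and 0.563. How reads were divided among these near-identical descriptions was not tested. The rows described as L30, L32 and L44 lay between -0.062 and 0.12, and none passed. Values of MRPL44 itself were at 0 throughout, whereas 2 rows with its description but no symbol were tested, at -0.02 and 0.12.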
